A study of Mus musculus with 3 samples.

Results

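The genes described here are 35 mouse genes of antioxidant defence, NADPH supply and detoxification that are linked to the transcription factor NRF2. They were listed by name, with no threshold on their values, but with earlier results of these arrays known. Matched by symbol through RefSeq accessions, 34 of the 35 had a probe, out of 13184 genes with a probe above background on at least 1 array. Pgd, an enzyme of the pentose phosphate pathway, was not matched to a probe and was not analysed here. All 34 were above background on all 3 arrays, and they were read by 52 probes.

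NRF2 belongs to the CNC family of bZIP proteins, which bind DNA only as pairs with a small Maf protein, MafF, MafG or MafK. Such pairs bind the antioxidant response element and switch on genes for glutathione synthesis, thioredoxin, NADPH and detoxifying enzymes, while pairs of a small Maf with the repressor BACH1 occupy many of the same sites and hold some of these genes down. Small Mafs that pair only with each other lack an activation domain and also act as repressors.

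RNA came from whole mouse embryos of mixed strain background, and each sample was a pool of 3 embryos on 1 single-colour array. The group called triple null lacked both copies of MafF, MafG and MafK and was taken at E10.5. The groups called MafG-intact lacked both copies of MafF and MafK, carried both copies of MafG, and were taken at E10.5 and at E9.5. The loss of MafF and MafK is therefore shared by all 3 groups, and no embryo with a full set of small Mafs was part of the comparisons. With 1 array per group no replicate stands behind a difference and no test could be made, so "higher" and "lower" describe these 3 arrays. Levels are log2 intensities relative to the 75th percentile of their array, which is 0 on this scale.

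The labels and the make-up of the pools were read before the genes. Mafg was above background on both MafG-intact arrays and not on the triple null array, where it was at least 173-fold lower than at E10.5. Xist, transcribed from an inactive X, was detected in MafG-intact E10.5 only, and 4 Y-linked genes (Uty, Kdm5d, Eif2s3y and Ddx3y) in the other pools only, so comparisons with MafG-intact E10.5 also differ in sex-linked RNA. The only listed gene on the X chromosome was G6pdx. From 69.1% to 70.4% of probes were above background on each array. Markers of red cells (11 of 11 measured), neurons (8 of 8), heart muscle (6 of 6) and hepatoblasts or yolk sac endoderm (8 of 8) were above background on every array, as whole embryos hold these cells. Of 6 macrophage markers, 3 (Aif1, Cx3cr1 and Ptprc) were not above background in the triple null pool. Cx3cr1 and Ptprc were not above background in the MafG-intact E9.5 pool either.

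Sites of the kind that small Maf pairs bind were looked for in RefSeq promoters of build GRCm38.p6, from 250 bases before to 50 bases after each start, on both strands. The core antioxidant response element was searched as TGACNNNGC, the NF-E2 type element as GCTGAGTCA and the AP-1 type element as TGAGTCA. Every NF-E2 type match holds an AP-1 type match, and its reverse complement is also a core match, so these overlap. The table held promoters for 30 of the 35 genes. The core was present in 11 of the 30 (36.7%), beside 14.0% of all 27025 genes in the table. The NF-E2 type element was present in Me1 and Prdx1, 2 of the 30 (6.67%), beside 0.503% of all genes, and the AP-1 type element in 5 of the 30 (16.7%), beside 5.95%. NRF2 targets are known for such sites and the list was made of NRF2-linked genes, so the higher share is no independent result.

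The sites below are those of the 3 genes with a core match that lay at least 1.5-fold apart between triple null and a MafG-intact array, and that of Prdx1 for contrast, since it carries the same letters as Me1 and hardly differed; Prdx1 was chosen after its values were seen. Each is written 5′ to 3′ on the strand of its gene, with the core match in capitals. The Me1 site spans the start on the minus strand at chr9:86695902-86695930, the Srxn1 site lies just after the start on the plus strand at chr2:152105542-152105570, and the Gclm and Prdx1 sites lie before it on the plus strand at chr3:122245387-122245467 and chr4:116685430-116685510.
Me1: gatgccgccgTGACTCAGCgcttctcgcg
Srxn1: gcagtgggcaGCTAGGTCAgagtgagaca
Gclm: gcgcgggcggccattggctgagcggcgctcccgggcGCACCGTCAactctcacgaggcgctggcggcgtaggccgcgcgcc
Prdx1: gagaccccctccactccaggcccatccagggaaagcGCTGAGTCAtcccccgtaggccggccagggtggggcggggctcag
Counted from the start, the capitals of Me1 run from position -6 to 3, and read as the reverse complement on the other strand they are the capitals of Prdx1. Those of Gclm begin at position -134, those of Prdx1 at -133, and those of Srxn1 at 29. The Srxn1 promoter also holds 2 AP-1 type matches before the start. A match is a description of letters and not a shown binding site.

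Between triple null and MafG-intact embryos at E10.5, most of the list lay close to no difference, and malic enzyme stood apart. Of 34 genes, 1 was at least 2-fold apart, Me1, which was 3.27-fold lower in the triple null pool. Among all 12529 genes detected on both arrays, the share past 2-fold was 5.45% (0.982% higher, 4.47% lower), so a count of 1 in 34 (2.94%) is not above the background. At 1.5-fold, Me1, Nqo1, Ephx1 and Srxn1 were lower and Gclm was higher, 4 and 1 of 34, beside 9.72% and 4.12% of all genes. Both directions together made 14.7% of the list and 13.8% of all genes. The median log2 difference of the 34 genes was -0.011, beside 0.06 over all genes, with 14 above 0 and 20 below. Of all 12529 genes, 7323 were above 0 and 5206 below. The median size of the difference, without its sign, was 0.12 in the list and 0.21 over all genes, and 24 of 34 (70.6%) lay within 1.25-fold, beside 67.6% of all genes.

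Against the younger MafG-intact pool at E9.5 the triple null pool again differed in Me1, which was 2.74-fold lower, and in Gclm, which was 1.90-fold higher. Me1 alone of the 34 passed 2-fold, beside 0.783% of all 12521 genes (0.256% higher and 0.527% lower). At 1.5-fold 1 gene was higher and 1 lower, beside 1.38% and 1.65%. The median log2 difference was -0.03 in the list and 0.0050 over all genes, and 30 of 34 genes (88.2%) lay within 1.25-fold, beside 89.7%. Between the MafG-intact pools, E10.5 against E9.5, no gene of the list passed 2-fold, beside 5.19% of all 12514 genes (4.12% higher and 1.07% lower). At 1.5-fold Nqo1 and Ephx1 were higher at E10.5 and none lower, beside 9.26% and 4.33%, and the medians were 0.0031 in the list and -0.05 over all genes. These 3 comparisons share arrays by pairs, so they are not independent of each other.

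**Figure D1:**
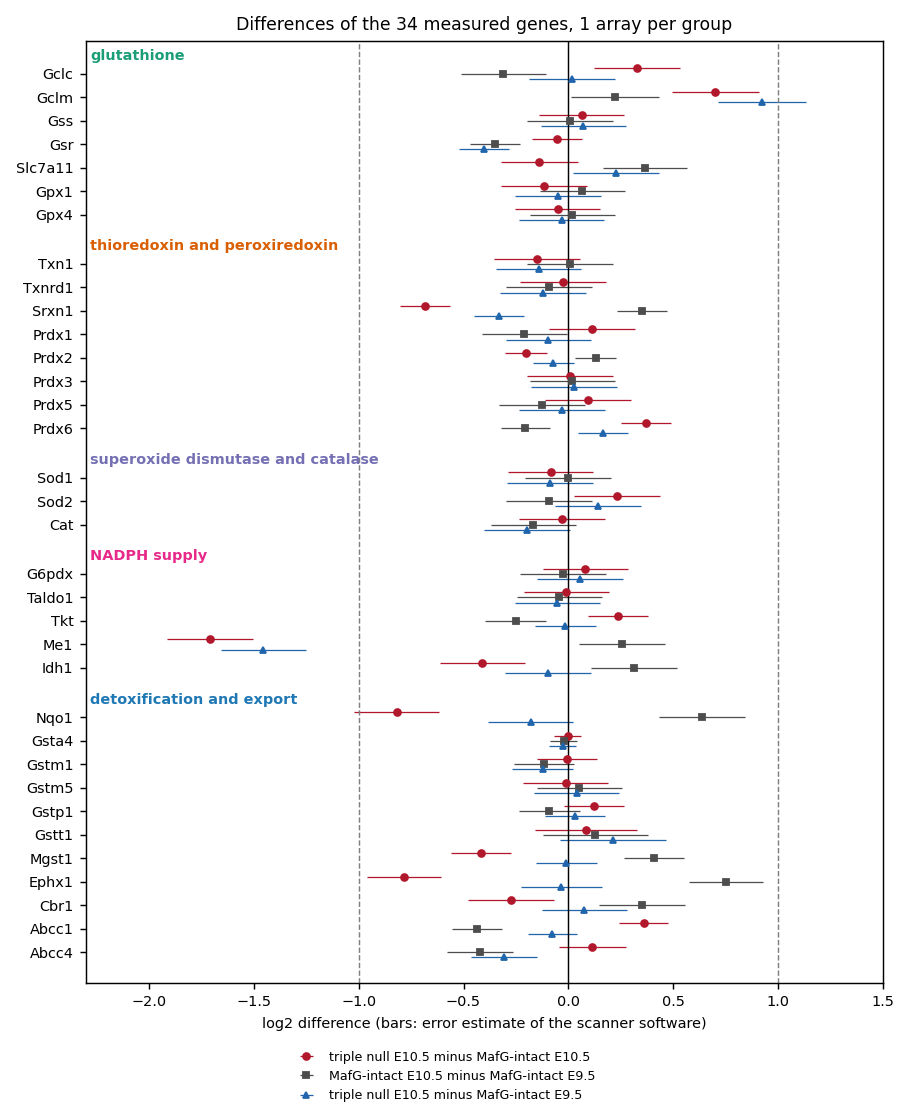
Log2 difference of each of the 34 measured genes (rows, by role) in the 3 comparisons; bars are the error estimate of the scanner software for the spots, and dashed lines mark 2-fold. Me1 is the only gene past a dashed line, at -1.71 and -1.45 in the triple null pool minus the E10.5 and E9.5 MafG-intact pools, and Gclm lies highest, at 0.70 and 0.92.

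The genes that supply NADPH, which glutathione reductase and thioredoxin reductase spend, held the gene farthest from both MafG-intact arrays. Me1, cytosolic malic enzyme, makes NADPH as it turns malate into pyruvate. Its level was -2.35 in the triple null pool, -0.64 in the MafG-intact E10.5 pool and -0.90 in the MafG-intact E9.5 pool. The triple null array was the low one, and the MafG-intact arrays lay 0.26 apart. The log2 difference was -1.71 ± 0.20 from E10.5 and -1.45 ± 0.20 from E9.5, where ± is the scanner software's error estimate of the 2 spots and leaves out the variation between embryos. Of all genes, 1.56% were at least as far down in the first of these comparisons and 0.248% in the second. Me1 was read by 1 probe, so no other probe checks it. In whole-embryo RNA, fewer cells that express a gene and less RNA per cell cannot be told apart.

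The remaining NADPH genes did not follow Me1. G6pdx, glucose-6-phosphate dehydrogenase, which opens the pentose phosphate pathway, lay at 2.81 in the triple null pool and at 2.73 and 2.75 in the MafG-intact pools of E10.5 and E9.5. Taldo1, transaldolase, lay at 5.38, 5.39 and 5.43 in the same order. Both were flat across the 3 pools. Tkt, transketolase, was 0.24 higher in the triple null pool than at E10.5 and 0.01 lower than at E9.5; its probes gave 0.37 and 0.11 in the first case. Idh1, cytosolic isocitrate dehydrogenase, lay at -0.73, -0.32 and -0.63, a difference of -0.41 from E10.5 and of -0.10 from E9.5. For Idh1 the MafG-intact E10.5 array was the high one. The NADPH group had a median of -0.0092 in the triple null pool against E10.5 and of -0.05 against E9.5, so its medians do not show the fall of Me1.

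In the glutathione group, both subunits of the enzyme that starts glutathione synthesis were higher in the triple null pool than at MafG-intact E10.5. Against E9.5 only Gclm was. Gclm, the modifier subunit of glutamate-cysteine ligase, lay at -2.94 in the triple null pool, -3.64 at MafG-intact E10.5 and -3.86 at MafG-intact E9.5. The triple null array was the high one. The log2 differences were 0.70 ± 0.21 and 0.92 ± 0.21. Of all genes, 2.69% and 0.383% lay at least as high in these comparisons. With another background correction (normexp) they were 0.51 and 0.50, below 1.5-fold. Like Me1, it was read by 1 probe. Gclc, the catalytic subunit, lay at 0.87, 0.54 and 0.85, which put the triple null pool 0.33 above E10.5 and near level with E9.5 (0.02).

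None of the other glutathione genes was 1.5-fold apart in a comparison. Gss, glutathione synthetase, which adds the last amino acid, lay at 0.09, 0.03 and 0.02, in the order triple null, then MafG-intact of E10.5, then of E9.5. Gsr, glutathione reductase, lay at 0.58, 0.63 and 0.98, so both E10.5 pools were below the E9.5 pool, by -0.40 for triple null and -0.35 for MafG-intact, with all 3 probes on that side; 3.42% of all genes lay at least as low in the triple null pool against E9.5. Slc7a11, the cystine importer, was dim, at -5.04, -4.90 and -5.27, and 1 of its 3 probes was not above background on any array and was left out. Gpx1 and Gpx4, the selenium peroxidases that use glutathione to reduce hydrogen peroxide and lipid peroxides, were flat: Gpx1 at 5.79, 5.91 and 5.84, and Gpx4 at 4.90, 4.95 and 4.93. The group median was -0.05 against E10.5 and 0.02 against E9.5.

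**Figure D2:**
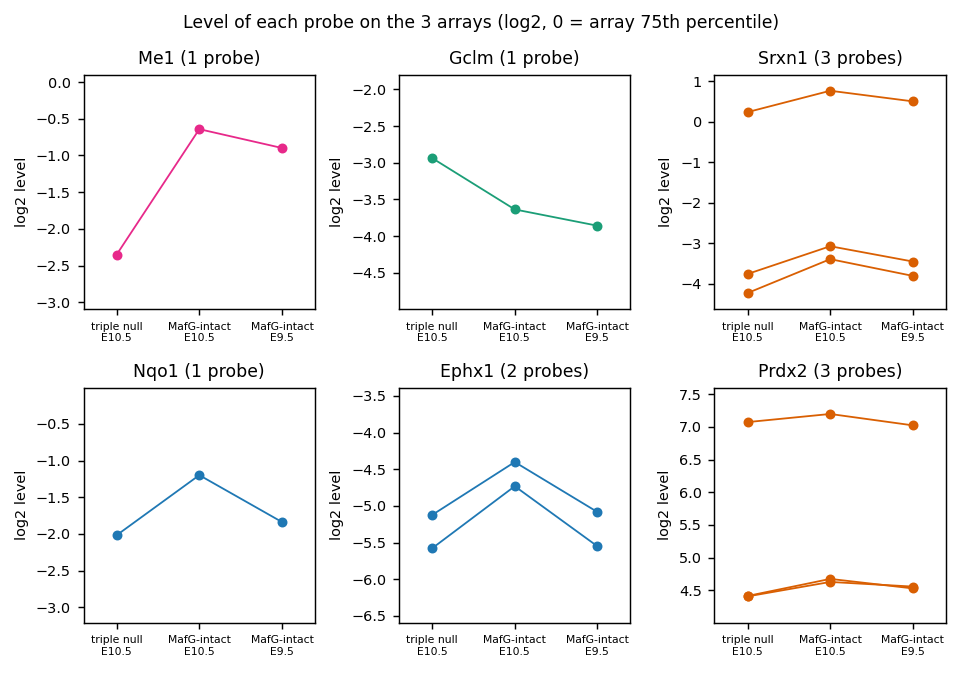
Level of each probe of 6 genes on the 3 arrays (log2, 0 is the 75th percentile of the array); a line joins the same probe. The triple null array is lowest for Me1 and highest for Gclm, the MafG-intact E10.5 array is highest for Nqo1, Ephx1 and all 3 Srxn1 probes, and Prdx2 is nearly level.

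Thioredoxin genes showed 1 change past 1.5-fold. Srxn1, sulfiredoxin, which rescues overoxidised peroxiredoxins, lay at -2.58 in the triple null pool, -1.90 at MafG-intact E10.5 and -2.25 at MafG-intact E9.5. The triple null array was the low one, by -0.68 ± 0.12 from E10.5 and -0.33 ± 0.12 from E9.5. Its 3 probes gave -0.53, -0.68 and -0.84 against E10.5 and -0.26, -0.31 and -0.42 against E9.5, so all of them were lower in both cases. With the brightest probe alone (-0.53) or with normexp (-0.43) Srxn1 was no longer 1.5-fold below E10.5. The normexp value also carries the constant added under that setting. Of all genes, 7.97% were at least as far down in the triple null pool against E10.5.

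Thioredoxin and its reductase were near level. Txn1, thioredoxin, lay at 4.04, 4.19 and 4.18, and Txnrd1, the selenoprotein that reduces it with NADPH, at 4.70, 4.73 and 4.82. Among the peroxiredoxins, which use thioredoxin or glutathione to break down peroxides, Prdx1 lay at 5.45, 5.33 and 5.54. The mitochondrial Prdx3 lay at 2.84, 2.83 and 2.81. Prdx5 lay at 1.66, 1.57 and 1.69. Of these 5 genes none was more than 0.21 apart in any comparison. Prdx6, which uses glutathione, was 0.37 higher in the triple null pool than at E10.5, with probes at 0.37, 0.31 and 0.43, and 0.16 higher than at E9.5.

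Prdx2, the abundant peroxiredoxin of red cells, was 0.20 lower in the triple null pool than at E10.5, with probes at -0.12, -0.22 and -0.26, and 0.07 lower than at E9.5. The brightest of its probes was printed 10 times on each array, and those spots gave 7.07 ± 0.03 in the triple null pool, 7.20 ± 0.05 at MafG-intact E10.5 and 7.02 ± 0.05 at MafG-intact E9.5 (SD, 10 spots, which measures printing and scanning only). Red cell markers moved much farther than Prdx2: 8 of 11 fell past 2-fold from E10.5 to the triple null pool, with a median of -1.28 and a summed signal of 347 against 613, in multiples of the 75th percentile, and 412 at E9.5. The brightest of them were Hbb-bh1 (-0.14), Hbb-y (-1.04) and Hba-a1 (-1.63). The part of red cell content in the values of Prdx2 was not tested.

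The enzymes that remove superoxide and hydrogen peroxide without these cofactors were also level. Sod1, the cytosolic copper-zinc superoxide dismutase, lay at 6.23, 6.31 and 6.32. Sod2, the mitochondrial manganese enzyme, lay at 4.36, 4.13 and 4.22, and Cat, catalase, at 1.99, 2.02 and 2.19. The farthest of these differences was 0.23, for Sod2 in the triple null pool against E10.5.

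Detoxification genes held 2 that separated the MafG-intact E10.5 pool from both others. Nqo1, the quinone reductase often used as the readout of NRF2 activity, lay at -2.02 in the triple null pool, -1.20 at MafG-intact E10.5 and -1.84 at MafG-intact E9.5. The MafG-intact E10.5 array was the high one. The triple null pool was -0.82 ± 0.20 from it and -0.18 ± 0.20 from E9.5. Between the MafG-intact days the difference was 0.64 ± 0.20, and 0.49 with normexp, below 1.5-fold. Ephx1, microsomal epoxide hydrolase, had the same order, at -5.35, -4.57 and -5.32. Its differences were -0.78 ± 0.18 from E10.5 and -0.03 ± 0.19 from E9.5, and both of its probes gave a lower level than at E10.5 (-0.72 and -0.85). Ephx1 was dim, and with normexp the difference from E10.5 was -0.055 and that between the MafG-intact days 0.070. For neither gene did the triple null pool lie 1.5-fold from the E9.5 pool.

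Mgst1, a membrane-bound glutathione transferase, and Cbr1, a carbonyl reductase, were also highest in the MafG-intact E10.5 pool, with smaller differences. Mgst1 lay at 0.93, 1.35 and 0.94, and both probes gave a lower level in the triple null pool than at E10.5 (-0.44 and -0.39). Cbr1 lay at 2.60, 2.87 and 2.52. Of the export pumps, Abcc1 ran the other way. Abcc1, which exports glutathione conjugates, lay at -0.47, -0.82 and -0.39, and its 3 probes gave 0.34, 0.37 and 0.37 in the triple null pool against E10.5. Abcc4 lay at -2.78, -2.89 and -2.47, so both E10.5 pools were below E9.5, by -0.31 and -0.42. Its difference between the E10.5 pools was 0.12 ± 0.16, within the error estimate.

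The soluble glutathione transferases were level. Gsta4, which handles the lipid peroxidation product 4-hydroxynonenal, was printed 10 times per array, and its spots gave 0.60 ± 0.04, 0.61 ± 0.05 and 0.63 ± 0.05 (SD, 10 spots) in the same order. The means lay within the spread of the spots. Gstm1 lay at 0.35, 0.35 and 0.47, Gstm5 at 3.67, 3.68 and 3.63, and Gstp1 at 4.37, 4.25 and 4.34; transcripts of these families are alike and may share probes, so their separate levels are uncertain. Gstt1 was dim, at -4.79, -4.87 and -5.002. The detoxification group had a median of -0.0063 against E10.5 and of -0.03 against E9.5.

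Markers of liver and yolk sac endoderm, where many detoxification enzymes are abundant, differed between the pools as well. Of 8 measured markers, 5 lay past 2-fold below E10.5 in the triple null pool and none above; against E9.5, 4 were lower and 1 higher. Their summed signal was 12.5 in the triple null pool, 25.4 at MafG-intact E10.5 and 21.0 at MafG-intact E9.5, in multiples of the 75th percentile. The brightest were Afp (-1.26 from E10.5), Rbp4 (-0.18) and Fgb (-0.52). Neuron markers summed to 9.30, 39.9 and 9.62 in the same order (Tubb3, Nefl and Nefm, the 3 brightest at MafG-intact E10.5, as for each list, at -1.86, -2.21 and -2.36 from E10.5), macrophage markers to 0.290, 1.11 and 0.299 (Lyz2, Fcer1g and Tyrobp, at -1.80, -1.22 and -3.59), and heart markers to 110, 57.3 and 83.2 (Myl7, Actc1 and Tnnt2, at 1.03, 1.01 and 0.85). For Me1, Srxn1, Idh1, Nqo1, Ephx1, Mgst1 and Cbr1 the pool with the highest level was also the pool with the highest sums of the neuron, macrophage, red cell and liver lists, and the part of these cells in their values was not tested. The liver sum rests mostly on Afp. Between the MafG-intact days 4 of the 8 liver markers were higher at E10.5 and 4 lower (Ttr, Apoa1, Amn and Rbp4), with a median of 0.05. Between the triple null and E9.5 pools the neuron and macrophage sums were close, and the red cell, liver and heart sums differed. In that comparison Me1 lay at -1.45 and Gclm at 0.92, and the part of cell content in these values was not tested.

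**Figure D3:**
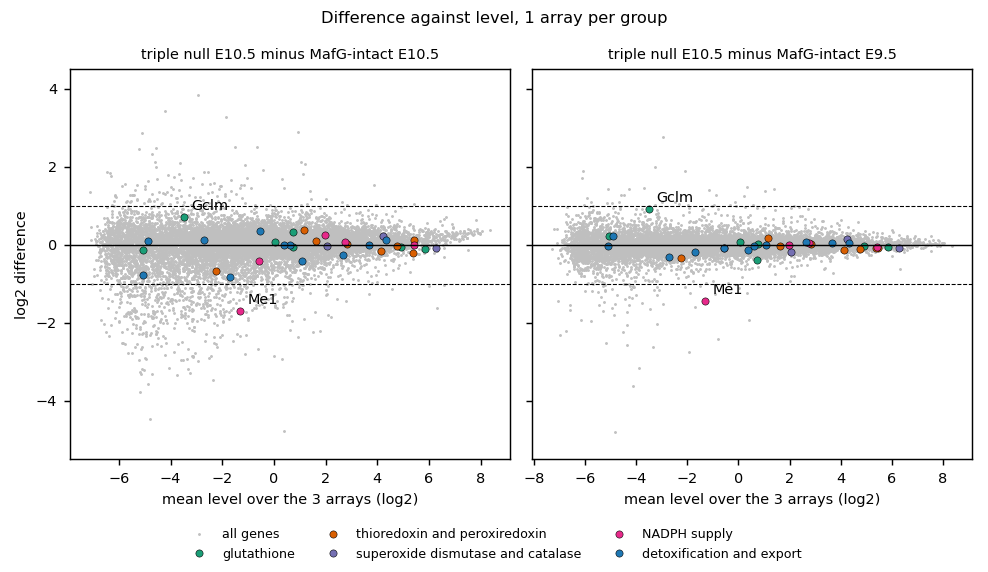
Log2 difference of all genes (grey) and of the 34 genes (coloured by role) against the mean log2 level over the 3 arrays, for the triple null pool against each MafG-intact pool; dashed lines mark 2-fold. The listed genes to the right of the centre lie near 0, and Me1 and Gclm lie among the dimmer ones.

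The genes that stood apart were all among the dimmer members. Of 26 members with a mean level at or above the median of all genes (-0.75), none was 1.5-fold apart in any of the 3 comparisons. In the triple null pool against E10.5, 6.19% of the 6592 genes at that level were. In 26 genes that share makes few, so the absence is near the background and is not a trait of the list. The shares at that level in the other comparisons are not given here. Of the 8 members below the median level, 5 were 1.5-fold apart in the triple null pool against E10.5 (Me1, Gclm, Srxn1, Nqo1 and Ephx1), where 22.3% of the 5937 dimmer genes were. The 3 dimmer members that were not were Slc7a11, Gstt1 and Abcc4. Me1 and Nqo1 kept a difference of at least 1.5-fold from E10.5 in all 6 alternatives that could give them a value. Each was read by 1 probe, so the brightest probe and no filter had to repeat the main value and are no separate check.

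Where genes had several probes, the probes of a gene mostly lay on the same side of 0. In the triple null pool against E10.5 the probes of 12 genes spanned a median of 0.13 and at most 0.31 (Srxn1), and for 10 of the 12 all probes lay on 1 side of 0. Against E9.5 the span was 0.12 and at most 0.39 (Slc7a11), with 9 of 12 on 1 side, and between the MafG-intact days 0.12 and at most 0.34 (Gsr), with 12 of 12. Over the 34 genes the median size of the difference was 0.12 against E10.5, 0.08 against E9.5 and 0.15 between the MafG-intact days. The spans between probes were thus of like size to a typical difference. Me1, Gclm and Nqo1 are not among these 12.

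Set beside the promoter letters, genes with the core element did not move as a group. Of 10 measured genes with a core match, 3 were 1.5-fold apart in the triple null pool against E10.5 (Me1, Srxn1 and Gclm), and these 3 went in different directions; the median of the 10 was -0.02. Of 19 with a promoter in the table and no core match in it, 2 were (Nqo1 and Ephx1), with a median of -0.03. Of all genes, 13.8% were, and with counts this small no difference between these classes is shown. Me1 and Prdx1, which share the letters shown above, were at -1.71 and 0.11. The window is short, and elements outside it were not searched.

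Other genes of the same pathways were on 4 lists of 94, of which 83 were measured. Against E10.5, 3 lay past 2-fold below in the triple null pool and none above (3.61%, beside 5.45% of all genes). They were Aldh1a1, a retinaldehyde dehydrogenase (-1.71), Mgst3, a membrane-bound glutathione transferase (-1.09), and Ggt5, a gamma-glutamyl transferase (-1.05). Ggt5 was dim and did not reach 2-fold, here or between the MafG-intact days, under normexp, quantile normalization or no filter on dim probes. Between the MafG-intact days 2 were at least 2-fold higher at E10.5 (Aldh1a1 at 1.91 and Ggt5 at 1.03), which is 2.41% beside 4.12% of all genes, with Mgst3 at 0.86. Against E9.5 none of the 83 passed 2-fold, beside 0.783%, and these 3 genes lay at 0.20, -0.23 and -0.02. None of the 83 was thus 2-fold apart from both MafG-intact arrays. With 0.783% of all genes past 2-fold against E9.5, none among 83 is near the background. The share of all genes 2-fold apart from both arrays is not given here.

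The list of other NADPH genes had the median farthest from 0 in the triple null pool against E10.5. Its median was 0.27, beside 0.06 over all genes, and it was 0.06 against E9.5. Against E10.5, 11 of its 15 genes were above 0, beside 7323 of all 12529 genes. None of the 15 was 2-fold apart. The farthest were Aldh1l2, a mitochondrial folate dehydrogenase (-0.70), and Mthfd1l, a mitochondrial folate enzyme (0.57). The folate cycle genes Mthfd1 (0.52), Mthfd2 (0.35), Shmt1 (0.50) and Shmt2 (0.41) were higher too, and Aldh1l1, another folate dehydrogenase, was lower (-0.47); these 5 were named after their values were seen and are not a list of their own. Against E9.5 Mthfd1l and the 4 other higher genes lay between -0.08 and 0.11, and Aldh1l1 and Aldh1l2 at 0.29 and 0.28. Me2 and Me3, mitochondrial malic enzymes, lay at 0.43 and -0.27 against E10.5 and at 0.14 and -0.35 against E9.5, beside -1.71 and -1.45 for Me1.

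The lists of other glutathione, thioredoxin and detoxification genes had medians of -0.11, -0.05 and -0.09 against E10.5 and of 0.0021, -0.0058 and 0.02 against E9.5. In the thioredoxin list the farthest were Msrb2 and Msrb1, which repair oxidised methionine, at -0.51 and -0.32 against E10.5. At 1.5-fold, 14 of the 83 genes (16.9%) were lower and 4 (4.82%) higher in the triple null pool against E10.5, beside 9.72% and 4.12% of all genes. The detoxification list held 10 of the 14 lower genes, among its 36 measured (27.8%). Against E9.5, 2 of the 83 (2.41%) were lower and none higher, beside 1.65% and 1.38%. Against E10.5 the 4 higher were Akr1b7 (0.76), Gpx3 (0.66), Aldh7a1 (0.66) and Pir (0.60). Among the 14 lower were Aldh1a1, Mgst3, Ggt5 and Aldh1l2, given above. The others were Ggt7 (-0.90), Akr1b8 (-0.89), Aox1 (-0.86), Cyp2s1 (-0.81), Ucp2 (-0.78), Gsta3 (-0.74), Gstk1 (-0.70), Osgin1 (-0.62), Ptgr1 (-0.59) and Glo1. Akr1b7, Aox1, Gsta3 and Osgin1 were dim. The 2 lower against E9.5 were Txnip, a thioredoxin-binding inhibitor (-0.64), and Glo1, glyoxalase (-0.63), and Glo1 was also at -0.59 against E10.5. These genes were named after their values were seen.

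**Figure D4:**
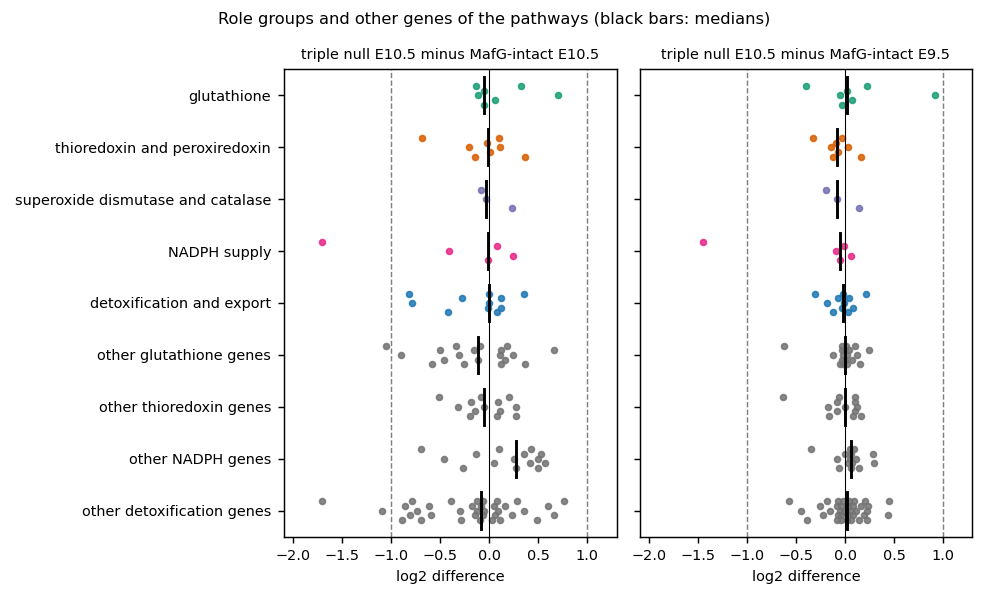
Log2 difference of every measured gene in the 5 role groups (coloured) and in 4 lists of other genes of the same pathways (grey), for the triple null pool against each MafG-intact pool; black bars are medians and dashed lines mark 2-fold. Points spread more against E10.5 than against E9.5, where Me1 is the only gene past 2-fold.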

How the data were processed

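Intensities were read by the authors using the Agilent program Feature Extraction, version 9.5.3.1, protocol GE1-v5_95_Feb07, on array design 014868 (build mm7), per the file headers. The deposited processed intensity is background-subtracted and linear; the well-above-background marks (0 or 1, coded as other) are those of the deposited scanner tables. The log2 of each of 43379 non-control spots was taken minus that of the 75th percentile of its array (1078 for the triple null array, 1420 and 1064 for the MafG-intact arrays of E10.5 and E9.5). Outlier spots (59, 52 and 83) were left out, spots of a probe averaged, and 22950 of 41170 probes given 1 symbol through their accession in a RefSeq table of GRCm38.p6. A gene's level is the mean of its probes, less those below background on every array. A gene was counted at 2-fold, and at 1.5-fold as a second threshold, when above background on both arrays; a gene on 1 array only has a bound ("at least N-fold"). There are no replicates and no tests. The steps were tested on simulated data with planted changes above 2-fold in brighter genes and spot noise below the error estimate. That simulation did not cover the 1.5-fold threshold or the dimmest genes. The ± of a difference joins the software's error estimates of its spots. The members and lists were chosen with earlier results of these data known; all members were named, with list genes 2-fold apart or the 2 farthest, the 3 brightest markers of a list, and promoters with a core match of members 1.5-fold apart. Tools were limma 3.58.1 in R 4.3.3 and, in Python 3.11.15, numpy 2.4.6 with pandas 2.3.3. Alternatives were quantile normalization, normexp with offset 50, the median of detected genes as the scale, filters on dim probes, the brightest probe, thresholds of 1.5-fold and 3-fold, the deposited value table, and promoters without the 50 bases after the start.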

Additional observations from a re-analysis of the deposited data

How the results depend on the processing

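Me1 alone of the list lay past 2-fold below both MafG-intact pools under normexp (-1.42 and -1.23), quantile normalization (-1.70 and -1.44), scaling on the median of detected genes, no filter on dim probes, the brightest probe and the deposited value table. With its 1 probe, no filter and the brightest probe had to repeat the main value of Me1. The value table holds the same signal to within 0.50%, and median scaling shifts all genes of an array alike. These settings are therefore no separate check of Me1. The count of members past 2-fold was 0 in both comparisons when genes dimmer than the median were left out, since Me1 lies below it, and 0 against E9.5 at 3-fold. At 1.5-fold the counts were 5, 2 (between the MafG-intact days) and 2. With normexp, 2 members were 1.5-fold apart in the triple null pool against E10.5 (Me1 and Nqo1), none between the MafG-intact days, and 1 against E9.5. The median of the NADPH group was -0.15 against E10.5 and 0.086 between the MafG-intact days under quantile normalization; the cause was not tested. Over all genes, normexp moved the median difference to 0.11, -0.10 and -0.0045 in the 3 comparisons. It also moved the count of all genes past 2-fold from 683, 650 and 98 to 267, 255 and 27. The constant of 50 added under normexp draws dim genes towards no difference. Its part in these falls was not separated from that of the background correction. Signs of 4, 11 and 4 members turned under some alternative, the largest of them 0.14, 0.37 and 0.07 in size.

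Of the pathway lists, the count of glutathione genes 2-fold apart fell from 1 to 0 in the triple null pool against E10.5, and likewise between the MafG-intact days, under normexp, quantile normalization, no filter, the filter at the median level and 3-fold. At 1.5-fold it was 4, 3 and, against E9.5, 1. The NADPH list had 1 with the brightest probe in each of the first 2 cases, and 1 and 2 at 1.5-fold. The thioredoxin list had 1 with no filter and 2 at 1.5-fold between the MafG-intact days, and 1 at 1.5-fold against E9.5. The detoxification list had 1 against E10.5 with the filter at the median level and at 3-fold and 13 at 1.5-fold, had 3, 0 and 7 between the MafG-intact days with no filter, the median filter and 1.5-fold, and had 1 against E9.5 with no filter. Counts over all genes past 2-fold, in the same order of comparisons, were 683 of 12529, 650 of 12514 and 98 of 12521. They were 1242, 1227 and 517 of 16358 with no filter, and 99, 93 and 12 of 6592 with the median filter. Quantile normalization gave 658, 635 and 93, and the brightest probe 705, 651 and 88. At 1.5-fold 1734, 1701 and 379 genes were apart. Counts over all genes at 3-fold are not given here. In the 250 bases before the start alone, the core element was present in 26.7% of members, beside 11.5% of genes. No paired analysis was possible because each group is 1 array. Dim probes limit the values of Ephx1, Slc7a11 and Gstt1.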
